A study of Strongylocentrotus purpuratus with 2 samples.

Results

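The transcript levels described here are those of the glycerol control alone, 1 library of purple sea urchin embryos (Strongylocentrotus purpuratus) collected 30 hours after fertilization. Every transcript model whose identifier begins with WHL22 and that had a value was kept once and ranked by its deposited signal, which gave 12936 models of the 17269 in the table. Eggs had been fertilized, microinjected with glycerol as the control treatment, and raised in artificial sea water at 15 °C. About 1000 whole embryos were pooled, and total RNA was taken from the pool. The embryos carried no morpholino, and the morpholino library of the same study was not used here. With 1 library there was no spread between samples, so no value below has a replicate check and no test was run.

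At this stage a sea urchin embryo is a swimming ciliated blastula that is about to gastrulate or has just begun. Its outer epithelium is divided into an oral and an aboral ectoderm with a thickened apical plate, skeletogenic mesenchyme cells have entered the blastocoel and start to build the larval spicules, and the vegetal plate holds the future gut, pigment cells and blastocoelar cells. Arylsulfatase, the Spec proteins and the spicule matrix proteins are classic markers of these territories in this species.

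Of the 12943 measured models of any identifier, 99.977% had a signal that was a multiple of 1 common step within 0.1 reads. Dividing by the step gave 4410413 reads over the 12936 models, and a share of reads is the same as a share of the signal. Intervals in parentheses are exact Clopper-Pearson 95% intervals of a share, and they cover counting error only, since several reads may stem from 1 molecule. Because the step was the same for all models, the signal had not been divided by transcript length. Ranks and shares are therefore of reads, and a long transcript and a common transcript cannot be told apart. For a model with 0 reads the floor was set at 3 reads, or 6.8e-05% of the total, and the upper bound of its exact interval was 8.36e-05%.

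The transcript pool was dominated by few models. The highest 10 models held 19.2% of the reads, the highest 100 held 43.8%, and the highest 1000 held 80.4%, each with an interval under 0.1 percentage points wide. It took 158 models to reach 50% of the reads and 1935 to reach 90%. The median model had 18 reads, with quartiles of 3 and 118, while the mean was 341 reads. At the low end 766 models had 0 reads, and 12170 had at least 1. At least 10 reads were found for 7594 models (58.7%), at least 100 for 3497, at least 1000 for 731, and at least 10000 for 50.

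**Figure D1:**
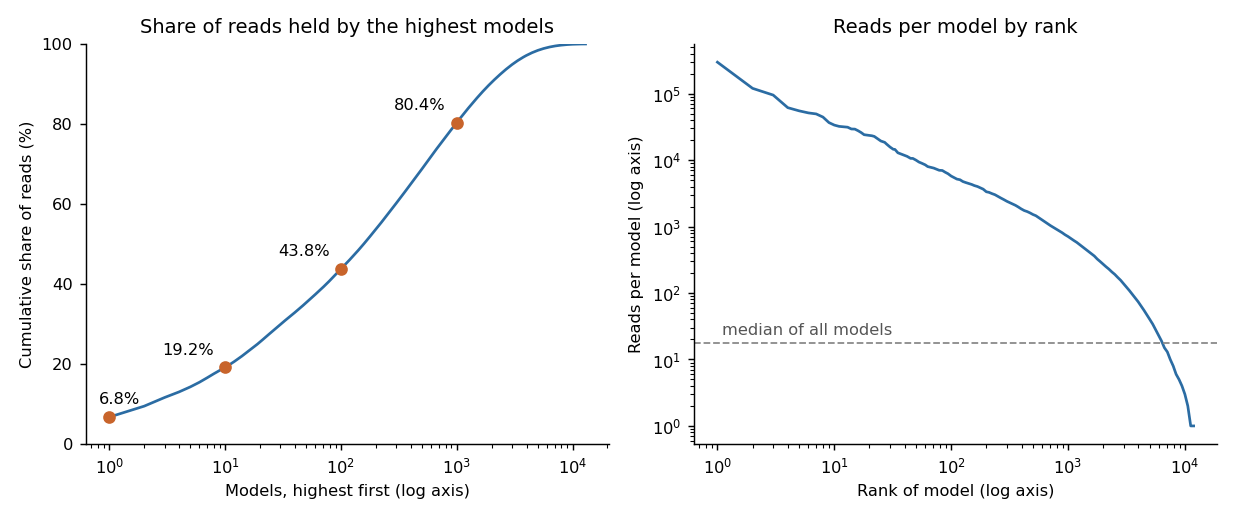
The left panel plots the cumulative share of reads (%) against the number of models taken from the highest down (log axis), and the right panel plots the reads of a model against its rank, both on log axes, for the glycerol control library; models with 0 reads are not drawn on the right. The first 10 models reach 19.2%, the first 100 reach 43.8% and the first 1000 reach 80.4%, and the dashed line marks the median of 18 reads.

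A low value here is weak information about a gene. The table left 4325 WHL22 models blank, and a blank was taken as missing and never as 0. Genes that every cell uses were among the blank and the low models. While 58.7% of all models had at least 10 reads, 10 of the 14 glycolysis models with a value had under 10. Among these were phosphoglycerate kinase (Sp-Pgk1) at 6 reads and lactate dehydrogenase (Sp-Ldha) at 1 read. Over all models, blanks and reads differed by identifier ending, though the low Sp-Pgk1 model ends in 0. Models ending in 0 were blank in 18.4% of 12285 cases and had a median of 23 reads where measured. Models ending in 1 were blank in 37.5% of 3063 cases and had a median of 8 reads, and those ending in 3 or above were blank in 50.4% of 843 cases and had a median of 4 reads. What the ending marks is not given in the sources used here, and its part in any low value was not tested.

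A name could be read for most of the pool. Models with a descriptive gene name numbered 8993 and held 73.4% of the reads. Those with only a placeholder name numbered 1048 and held 4.1%, and the 2895 models with no name held 22.5%. Among the highest 100 models, 83 had a descriptive name, 3 had a placeholder and 14 had none. Of all models, 3006 stood on several rows of the table, under several gene predictions, and together held 26.5% of the reads. The names on such a model cannot be separated, and models of related genes may share reads, since how reads were assigned to models, and whether strand was used, is not given in the sources used here.

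The highest model of all had no name. WHL22.598028.0 stood on 16 rows and had a signal of 789210, which is 298102 reads and 6.76% of the total (6.74 to 6.78). That was more than the 23 measured actin and actin-binding models together. The next models without a name were far lower: WHL22.521616.0 had 32207 reads, WHL22.270083.0 had 31687 and WHL22.74605.2 had 29441. Then came WHL22.83014.0 with 24143 reads, WHL22.130781.0 with 22740 and WHL22.173564.0 with 20884. The last of the 10 highest without a descriptive name were WHL22.147840.1 with 19069 reads, WHL22.232024.0 with 18528 and WHL22.205480.0 with 17461. What these models encode was not analysed here.

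Aboral ectoderm products were among the highest named transcripts. Sp-Ars, an arylsulfatase long used as an aboral ectoderm marker, had a signal of 252469 and 95363 reads, a share of 2.16% (2.15 to 2.18) and rank 3. A second model with the same name had 36739 reads and rank 9, and the other 2 models named Sp-Ars had 58 and 3 reads. With 15 measured models the arylsulfatases held 3.22% of the reads (3.21 to 3.24), although their median model had only 63 reads, so nearly all of that share lay in the pair of high Sp-Ars models. Sp-Arsb_7, the next of the class, had 6858 reads, and Sp-Arsb_2 had 1495.

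The Spec proteins, calcium-binding relatives of troponin C that mark aboral ectoderm, were few and high. Spec 1 had a signal of 117767 and 44483 reads, a share of 1.01% (0.999 to 1.02) and rank 8. The model named for both Spec2c and spec2a had 19429 reads. The remaining members were a spec2c exon model with 588 reads and Spec2d with 69. All 4 Spec models were above the median of all models, and together they held 1.46% of the reads (1.45 to 1.48).

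A pigment gene ranked beside them. Sp-Ployketide_synthase_like, the polyketide synthase needed for the echinochrome pigment of larval pigment cells, had a signal of 146126 and 55195 reads. Its share was 1.25% (1.24 to 1.26) and its rank 5.

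Actin and actin-binding proteins formed the class with the largest share. Its 23 measured models held 5.62% of the reads (5.6 to 5.64) with a median of 2580 reads, against 18 reads for all models, and 21 of the 23 lay above that median. The thymosin beta homolog, a small protein that holds actin monomers, was the highest named model of the library. It had a signal of 318520 and 120312 reads, a share of 2.73% (2.71 to 2.74), which was 48.5% of its class. Profilin, another actin monomer binder, had 33692 reads. Actin putative homolog 5 had 31320 reads and actin putative homolog 2 had 20490. Fascin, which bundles actin filaments, followed with 8833 reads, Tropomyosin 2 with 6256 and the Arp2 subunit of the filament-branching complex with 4468. Both monomer binders thus stood above every model named actin in reads, on a scale that is not per length.

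Other cytoskeletal classes were smaller. The 26 measured tubulin models held 0.376% (0.37 to 0.381), led by a beta-tubulin model with 7787 reads that carries the names of beta-tubulin-1 and beta-tubulin-7. The next were beta-tubulin-2 with 2339 reads, a model with several alpha-tubulin names with 1997 and alpha-tubulin5 with 1169. Over models on 1 row only, the tubulin share was 0.123%, since 14 of the 26 stood on several rows. Myosins held 0.151% over 17 models, and the essential light chain of myosin II, with 4175 reads, made up 62.5% of that. Myosin7A had 1065 reads, a myosin I homolog 817 and the model myosin1d/myosin1e 446.

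Dynein and ciliary genes were uneven. Dyneins, tektins and intraflagellar transport genes held 0.624% (0.616 to 0.631) over 60 measured models, with a median of 12.5 reads. Many build the axoneme or carry its parts, but the class also holds cytoplasmic dynein models, such as Dncic2 like with 2862 reads and DYNC1LI2 with 1520. Some small and structural members were high: Dynein Light Chain-2-5a had 5071 reads, RIB43A 4115 and Tektin-3 3348. Others were not, with Dynein Light Chain-2-5d at 232 and Tektin-1-3 at 57. The 28 measured dynein heavy chains had a median of 8.5 reads, and the highest of them, Sp-DNAH1, had 684. FoxJ1, the transcription factor of motile cilia, had 921 reads.

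**Figure D2:**
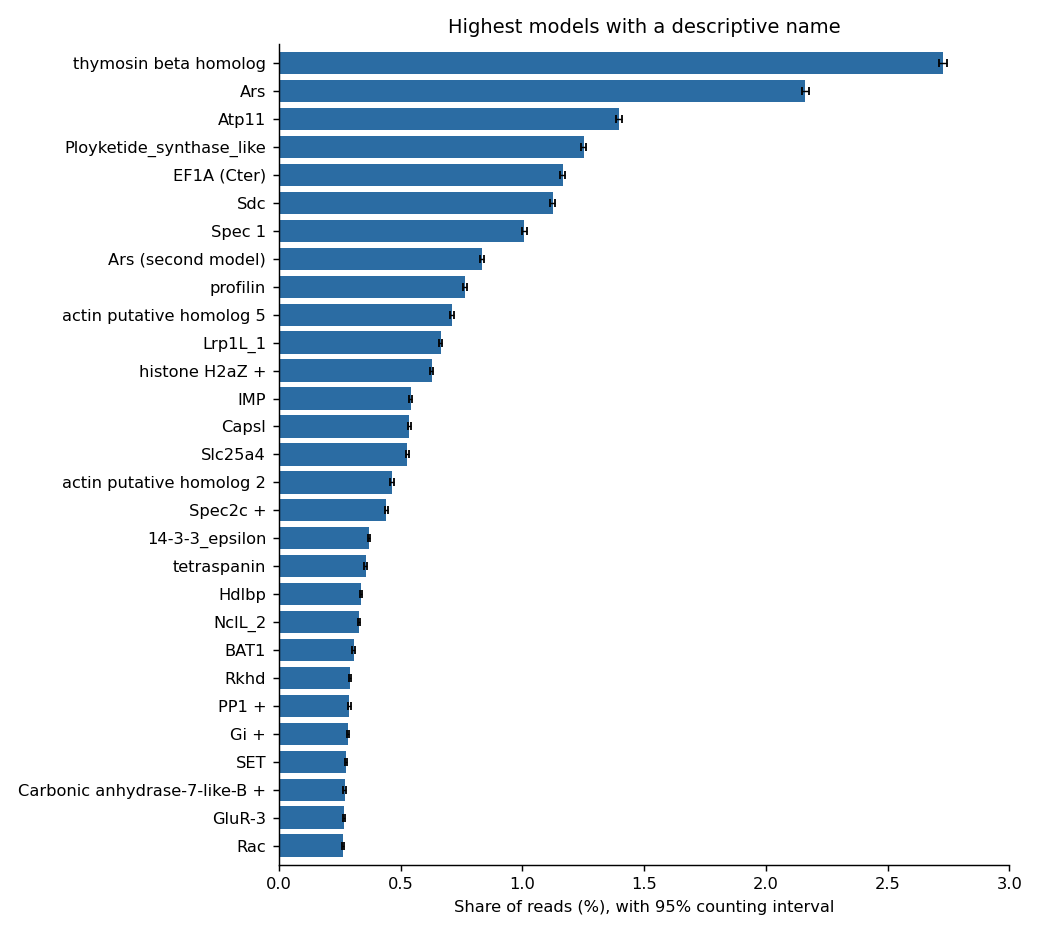
Bars give the share of reads (%) of 29 of the 30 highest models with a descriptive name in the glycerol control library, with exact 95% counting intervals; a plus sign marks a model that carries more names. The thymosin beta homolog reaches 2.73% and Sp-Ars 2.16%, and Sp-Rac, the last bar, stands at 0.262%.

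The translation machinery was broadly high. Cytoplasmic ribosomal proteins held 2.61% of the reads (2.59 to 2.62), and 67 of their 68 measured models lay above the median of all models. Their median was 1322.5 reads, against 18 for all models, and no single one dominated: the highest, Sp-Rpl41, had 6813 reads and made up 5.92% of the class. Sp-Rps6 had 6420 reads, Sp-Rpl37a 5444 and Sp-Rpl35 4563. The 37 large-subunit models had 66397 reads in sum and the 30 small-subunit models 46077. Only 2 ribosomal models were among the highest 100 of the library, while 48 were among the highest 1000.

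Translation factors had a different make-up. They held 1.89% (1.87 to 1.9) over 35 models, of which elongation factor 1 alpha, named EF1A (Cter), gave 61.8% with 51400 reads. The factor Eif5A had 5186 reads, the release factor eRF1 3983 and the initiation factor eIF1 3866. Below them reads fell, and 10 of the 35 models had under 10 reads, among them eIF5B at 1 and the release factor eRF3 at 0. The class median was still 243 reads, against 18 for all models, of which 58.7% had at least 10 reads. Another model named EF1A had 176 reads and a further one was blank. Of 24 measured tRNA synthetases, Sp-Dars for aspartate had 3993 reads, Sp-Iars for isoleucine 530, Sp-Tars for threonine 381 and glutaminyl-tRNA synthetase 358. That class held 0.138%.

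RNA-binding and splicing proteins were the second class by share, at 3.62% (3.6 to 3.64) over 136 models. The class was wide, with a median of 61 reads, 8 models among the highest 100 and 39 of the 136 under 10 reads. Of all models, 58.7% had at least 10 reads. Vigilin (Sp-Hdlbp), a protein with many KH domains, had 14871 reads, and nucleolin-like NclL_2 had 14517. The splicing and export helicase BAT1 had 13549 reads and Sp-Rkhd, which joins a RING finger to KH domains, had 12900. Close below were the splicing regulator QKI with 11073 reads, the stress-granule protein G3BP2-like with 8977, Nova1 with 7818 and TARDBP-like_2 with 7009.

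Histone reads lay mostly in models named for replication-independent variants. The histone class held 0.95% (0.941 to 0.959), and its highest model, H2aZ, had 27675 reads and made up 66% of it. A model named both histone H3.3 and early-histone-H3 had 8485 reads, and macroH2a had 444. The 16 late histone models, the set used from blastula onward, had between 7 and 56 reads with a median of 13, and the 5 cleavage-stage models had 354 reads in sum, of which cleavage histone H4 had 263. Of the 31 histone models, 21 stood on several rows, one of them on 95, and over models on 1 row only the class share was 0.144%. Replication-dependent histone messages mostly lack a poly(A) tail. How RNA was selected for the library is not given in the sources used here, and its part in these values was not tested.

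Chromatin modifiers held 0.259% over 54 models with a median of 85 reads. The highest were Smarce1 of the SWI/SNF remodelling complex with 1663 reads, the histone methyltransferases SuVar 3-9 with 1424 and Setd8 with 1320, and the deacetylase Hdac4 with 764. Sp-SET, a histone chaperone outside that class, had 12215 reads and rank 38.

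By median, respiratory chain and ATP synthase models had more reads than glycolysis models. Respiratory chain and ATP synthase subunits held 0.75% (0.742 to 0.758) over 49 models with a median of 293 reads. The median was 61 reads for the 24 complex I models and 591.5 for the 10 ATP synthase models. The catalytic ATP synthase subunits Atp5b and Atp5a1 had 4487 and 3708 reads, followed by the complex II subunit Sdhd with 2422 and the cytochrome oxidase subunit Cox6b1 with 2400. The 24 mitochondrial ribosomal models held 0.0564%, with Mrps30 at 405 reads, Mrpl23 at 338, Mrps14 at 304 and Mrpl46 at 253. Glycolysis and TCA cycle enzymes held 0.238% over 36 models with a median of 10 reads, or 6.5 for glycolysis and 78 for the TCA cycle alone. The TCA cycle gave the highest of them, Sucla2 with 2849 reads and Suclg1 with 1251, and aldolase, with models at 1391 and 1158, was the highest of glycolysis.

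Membrane carriers had a few very high members. Solute carriers were the most numerous class, 275 measured models, and held 1.78% (1.77 to 1.79) with a median of 19 reads. Slc25a4, which exchanges ADP for ATP across the inner mitochondrial membrane, had 23267 reads and gave 29.6% of the class. The phosphate carriers Slc25a3 of mitochondria and Slc34a2_1 of the cell surface had 7748 and 6887 reads, and the monocarboxylate carrier Slc16a7 had 3061.

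Carbonic anhydrases, which interconvert carbon dioxide and bicarbonate, held 0.528% (0.522 to 0.535) in 6 models, 2 of which carried nearly all reads. A model named for the 7-like-B and 2-like-B enzymes had 11903 reads, and a model with 9 carbonic anhydrase names had 11395. The others had 7 reads or fewer. Since both high models stood on several rows, the share over models on 1 row only was 0.000247%, and which enzyme gives these reads cannot be told apart. Ion channels and ionotropic receptors held 0.381% over 75 models, with the acetylcholine receptor subunit Chrna6L_5 at 3690 reads, the potassium channel Kcnd2 at 2252 and a calcium channel beta subunit at 1206. The G protein-coupled receptors held 0.157% over 78 models. None of those passed 1000 reads, and the highest were LRR-GPCR with 951, Gpr54L_3 with 756, a model named SpGPCR 126 alpha 1 with 623 and one named for a galactose-binding lectin receptor with 503. Tetraspanins, proteins that organise the plasma membrane, held 0.642% over 14 models that all share 1 name, the highest with 15745, 7012, 4108 and 805 reads.

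Protein folding and turnover genes were spread over many moderate models. Heat shock proteins and chaperonins held 1.44% (1.43 to 1.45) over 58 models with a median of 310.5 reads, and 45 of them lay above the median of all models. HSP90-like had 10626 reads, HSP702A 9650, the disulfide isomerase Pdia6 5078 and HSP40D 3553. The 9 Hsp70 models together held 0.482%, and the 11 models of the CCT chaperonin, which folds actin and tubulin, held 0.122%. The proteasome and ubiquitin pathway held 0.802% over 83 models. Its highest members were SUMO with 6076 reads, the ubiquitin receptor Ubqln-1 with 3636, the ubiquitin fusion Ubq/RL40fp with 2543 and the ligase subunit Skp1 with 2453.

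**Figure D3:**
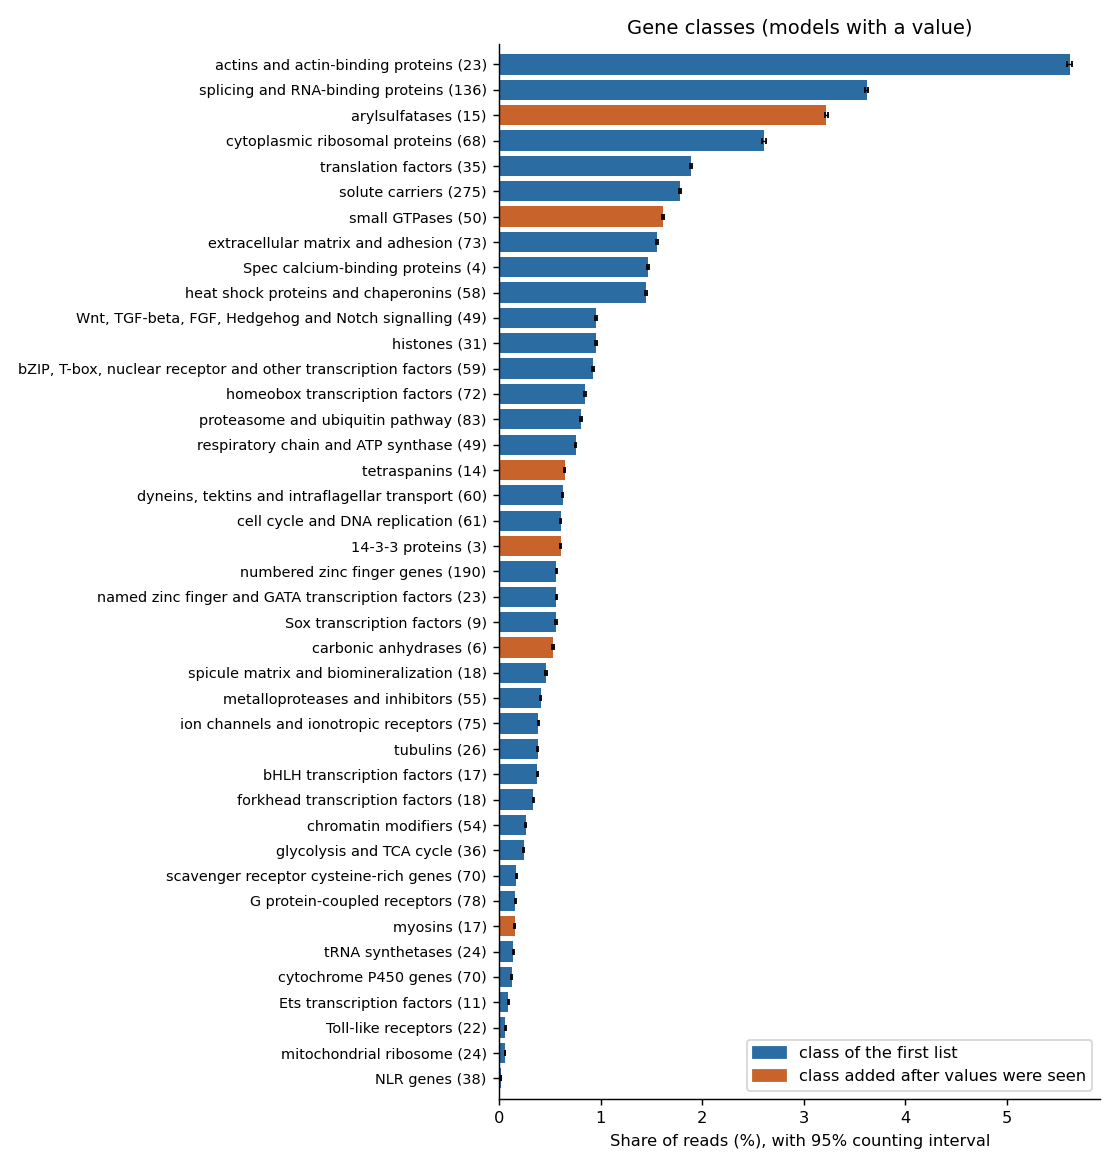
Bars give the summed share of reads (%) of 41 gene classes in the glycerol control library, with exact 95% counting intervals and the number of models with a value in parentheses; orange bars are classes that were added after values had been seen. Actins and actin-binding proteins reach 5.62%, splicing and RNA-binding proteins 3.62%, and the NLR genes at the bottom 0.0181%.

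The cell surface and matrix class held 1.55% of the reads (1.54 to 1.56), and syndecan alone was 72.5% of it. Sp-Sdc, a heparan sulfate proteoglycan of the plasma membrane, had a signal of 131292, 49592 reads and rank 7. Glypican (Gpc1246) had 4711 reads, a collagen-like gene 3154 and a fibrillar collagen fragment 2380. Many of the 73 measured members were low, with a median of 11 reads for the class against 18 for all models. Under 10 reads were found for 35 of the 73, while 58.7% of all models had at least 10. Hyalins, proteins of the hyaline layer that coats the embryo, had at most 31 reads in 12 models, and the 12 laminin models had at most 248. Metalloproteases and their inhibitors held 0.408% over 55 models, led by mmp18/19-like2 with 6394 reads. The astacin proteases AN-like1 and AN-like2 had 2765 and 2729 reads, and a model named for ADAM-TS16/18-like had 1216. Sp-Lrp1L_1, a receptor of the LDL receptor family that is in none of the classes, had 29302 reads and rank 15.

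Intracellular signalling switches were among the high named models. Small GTPases held 1.61% (1.6 to 1.62) over 50 models, 6 of which were among the highest 100. Rac and Cdc42, which control the actin cytoskeleton, had 11574 and 9909 reads, Arf1L2 of vesicle coats had 9041, and Rab5 of endosomes had 7876. The 14-3-3 proteins, adaptors that bind phosphorylated partners, had 16324, 6246 and 4033 reads in their 3 models and held 0.603% (0.596 to 0.61), which became 0.317% over models on 1 row only. Protein phosphatase PP1 had 12790 reads, the G protein alpha subunit Gi had 12496, and the calcium-binding calcyphosine-like Sp-Capsl had 23652.

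Developmental signalling genes were present at moderate reads, and transducers and receptors were the highest of them. The Wnt, TGF-beta, FGF, Hedgehog and Notch class held 0.955% (0.946 to 0.964) over 49 models with a median of 230 reads. Beta-catenin, the transducer of Wnt signals and an adhesion protein, had 7605 reads, the model Notch1b had 5761, a Frizzled receptor 3255 and the activin receptor ACVR2 2831. The 3 Frizzled models had 522 to 3255 reads and the 6 TGF-beta family receptor models 107 to 2831. Of 11 measured Wnt ligands, Wnt5 was highest with 1086 reads, and their median was 123.

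The transcription factor classes held 4.24% of the reads (4.22 to 4.26) over 398 models. These include 190 genes known only by a zinc finger number, which held 0.562% with a median of 44.5 reads. The median of the 398 was 54 reads, against 18 for all models, and 41 had at least 1000. Under 10 reads were found for 99 of the 398, while 58.7% of all models had at least 10. The highest 15 carried 48.6% of the reads of all 398. Soxb1, an early ectodermal factor, was first with 10617 reads, followed by the bZIP factor Hlf with 9359 and Soxb2, which is linked to neural ectoderm, with 8986. The Max-binding repressor mxi had 7562 reads and the AP-1 component Jun had 7266. Hox7 had 7107 reads and FoxA, a factor of the endoderm, 6291. Next were spalt1 with 6019, the homeobox genes Nk2-2 with 5044 and IrxA with 4763, and the Krüppel-like factor klf1 with 4578. SoxC, the target of the study's morpholino, had a signal of 10632.2 and 4016 reads in these control embryos, a share of 0.0911% (0.0883 to 0.0939) and rank 167. The list closed with the ARID factor deadringer at 3187 reads, a model named for p53-like and for an RNA-binding protein at 3073, and Xbp1 of the unfolded protein response at 3033.

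Within families the reads were often in 1 or a few members. Of the 9 Sox models, Soxb1, Soxb2 and SoxC were the only ones above 1000 reads, SoxF had 517, and 3 had under 10. Of the 7 measured Hox models, Hox7 had 7107 reads, Hox11/13b had 577 and the other 5 had under 10. Homeobox genes as a whole held 0.844% over 72 models, with Tgif next after Hox7, Nk2-2 and IrxA at 1592 reads. Forkhead genes held 0.335% over 18 models, where FoxK had 2761, FoxP 2177 and FoxJ1 921 reads after FoxA. Basic helix-loop-helix genes held 0.372% over 17, where HesC, a repressor in the skeletogenic gene network, had 2533, Id 2203 and Myc 1858 reads after mxi. Ets genes held 0.0878% over 11, with Ets4 at 2626 reads, Elk at 879, Ets1-2 at 258 and Pea at 68.

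Zinc finger genes contrasted in another way. The 190 measured genes known only by a zinc finger number held 0.562% with a median of 44.5 reads, and 131 of them lay above the median of all models. The highest of them were z188 with 2725 reads, Z12 with 1923, z62 with 1136 and z131 with 940. The 23 named zinc finger and GATA genes held 0.561%, nearly the same share, with a median of 240 reads. GliA of the Hedgehog pathway had 2604 reads and Gata2a had 2385. The mixed class of bZIP, T-box, nuclear receptor and other factors held 0.924% over 59 models, and the Sox genes held 0.557%.

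Cell cycle and DNA replication genes held 0.604% (0.596 to 0.611) over 61 models with a median of 33 reads. Cyclin D, which drives entry into the cycle, was highest with 5299 reads, the cohesin subunit Rad21 had 5130, Cks1B 2509 and the mitotic Cyclin B 2500. The 8 measured MCM models, of the replicative helicase, had at most 594 reads.

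Defence genes were low as a group. Scavenger receptor cysteine-rich genes, a family expanded in this species, held 0.167% (0.163 to 0.171) over 70 models. Of these, 42 had under 10 reads, whereas 58.7% of all models had at least 10. A few of the 70 had more reads: SRCR-139 had 1358, SRCR-74 had 1268, SRCR-144 had 1243 and SRCR-95 had 973. Toll-like receptors held 0.0588% over 22 models, and 86.9% of that was TlrP16 with 2254 reads. A model that also carries an arylsulfatase name had 147 reads, a model on 75 rows had 110 and Tlr066 had 23. NLR genes held 0.0181% over 38 models, the highest with 245, 222, 49 and 36 reads. The NLR share was 0.00459% over models on 1 row only and 0.00664% where every name had to be an NLR name. Near-identical copies in these families may share reads. Cytochrome P450 genes held 0.12% over 70 models, with Cyp2U at 1015 reads, Cyp1-like1 at 440, a model named for Cyp17a1 at 428 and one named for Cyp2-like22 at 383.

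**Figure D4:**
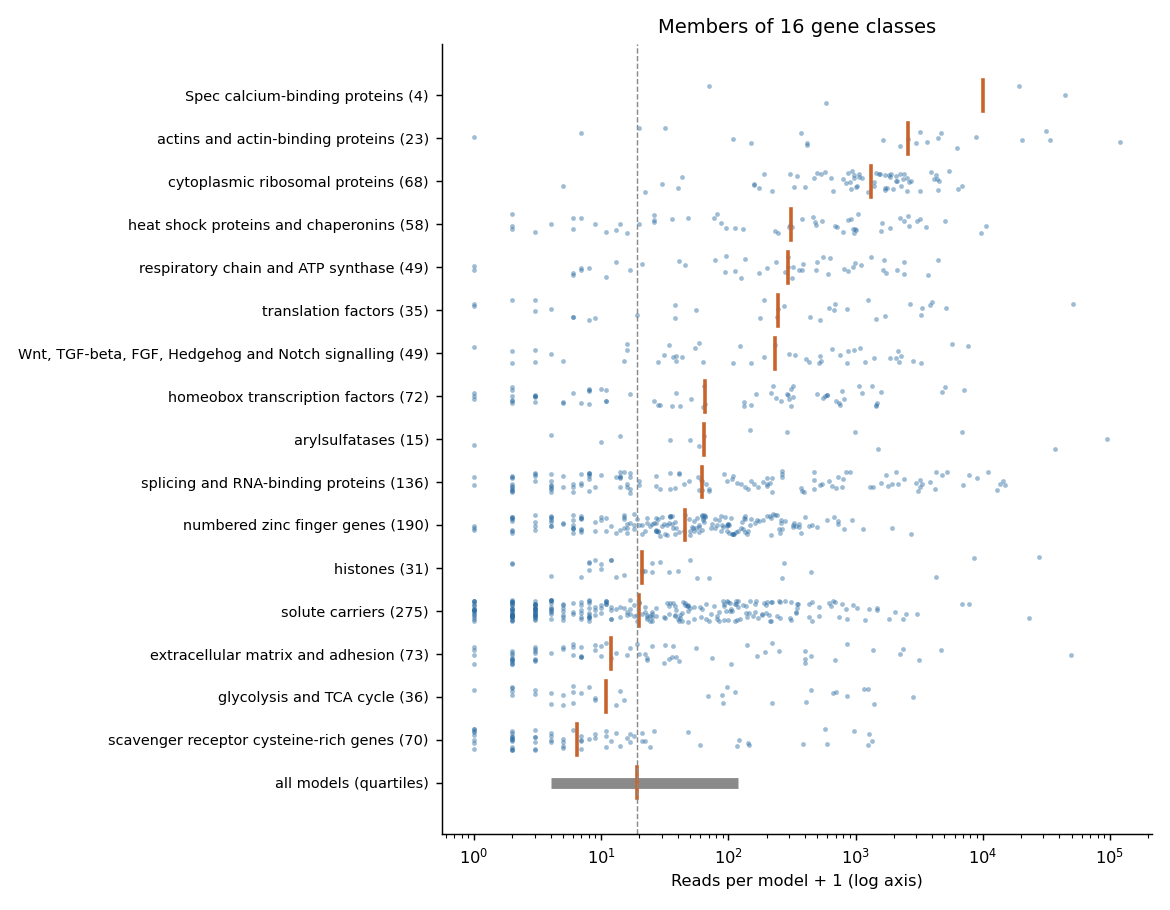
Each point is 1 model, placed by its reads plus 1 (log axis), for 16 gene classes of the glycerol control library; orange lines mark medians, the grey bar the quartiles of all models and the dashed line their median. Ribosomal proteins cluster around a median of 1322.5 reads, while arylsulfatases, translation factors and matrix genes each have 1 or a few members far to the right of the others.

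Markers of the embryo's territories were then read against the label of a whole embryo at 30 hours. In whole embryos, fewer cells of a type and less RNA per cell cannot be told apart, so a share of reads is not a share of cells. Markers of every territory listed had reads. Aboral ectoderm had the largest summed share, 4.7% (4.68 to 4.72), with values for 6 of its 8 markers. Besides Sp-Ars and the Spec genes these were Hox7 with 7107 reads, Tbx2-3 with 1968 and Dlx with 1459, and no model was named for the actins CyIIIa or CyIIIb. Oral ectoderm markers summed to 0.0795% (0.0769 to 0.0821). Among them the BMP antagonist chordin had 1881 reads, Gsc 738, Not 287, the Nodal antagonist Lefty 230 and BMP2/4 36. The ligand Nodal, at the top of the oral gene network, held 0.00755% of the reads, between Gsc and Not.

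Pigment and blastocoelar markers summed to 1.64% (1.63 to 1.65), and all 7 had reads. After the polyketide synthase, the pigment cell regulator gcm had 2208 reads, Scl 209, GataC 177 and the highest sulfotransferase of the SULT kind 138. Scl and GataC, both regulators, were thus far below the pigment enzyme in reads.

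Skeletogenic mesenchyme markers summed to 0.461% (0.455 to 0.468). Cyclophilin had 7013 reads, P16 had 4006 and the spicule matrix protein SM50 had 3652. MSP130-related-2, of the cell surface glycoproteins of these cells, had 2202 reads, SM30-B 956, SM29 482 and a VEGF receptor-like gene 428. The regulators Ets1-2 and Tbr had 258 and 248 reads. P19 had 13 reads, and SM37 and the regulator Alx1 had 2 reads each. The only models listed for Alx1 and P19 end in 1, and the only one for SM37 ends in 0. The spicule matrix and biomineralization class, which overlaps this list and is no wider, held 0.459% over 18 models, with a median of 337 reads. Its highest model gave 34.6% of its reads.

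Endoderm markers summed to 0.225% (0.22 to 0.229), of which FoxA gave most. GataE had 995 reads, Wnt8 963, Eve 751, Hox11/13b 577 and Brachyury 279, while Krl had 30 and Blimp1 had 22. No model was named for Endo16. Apical and neural markers summed to 0.654% (0.647 to 0.662), most of it in the SoxB genes. The apical plate genes Six3, Nkx2-1 and Hbn had 1478, 1124 and 1071 reads, the Notch ligand Delta 652 and the POU factor Brn1-2-4 591. Rx had 35 reads, and the serotonin-synthesis enzyme TPH, a product of differentiated neurons, had 5. The highest synaptotagmin model had 110 reads, and the neuronal gene Elav was blank. The 2 FoxQ2 models stand under identifiers outside WHL22 and were left out by the rule, and the higher had 410 reads. Ciliated cell markers summed to 0.56% (0.553 to 0.567). Most of that, 0.339%, lay in 17 models of alpha and beta tubulins, given above as a general cytoskeletal class. Rfx had 74 reads and Hnf6 was blank.

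Egg and cortical granule markers had at most 31 reads, while the lists of sperm, early blastula and adult coelomocyte markers were mixed. Of the early blastula list, hatching enzyme, which frees the embryo before this age, had 23 reads in HE1 and 15 in HE2. The leading AN-like proteases of the same list, which are astacins, were higher, as given above. That list summed to 0.357%, most of it in the model shared by H3.3 and early-histone-H3, and no model was named for Bep. Egg and cortical granule markers summed to 0.00224% (0.00182 to 0.00273). The highest hyalin had 31 reads, the highest SFE model 13 and proteoliaisin 2, major yolk protein had 1, rendezvin was blank and no model was named for ovoperoxidase. The sperm adhesion protein bindin had 0 reads. The highest suREJ model, named for the sperm receptor for egg jelly, had 190, against a median of 18 for all models. Of the adult coelomocyte list, an immune effector family had at most 2 reads and the complement model had 2. Nearly all of the list's 0.167% thus lay in the scavenger receptors described above.

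**Figure D5:**
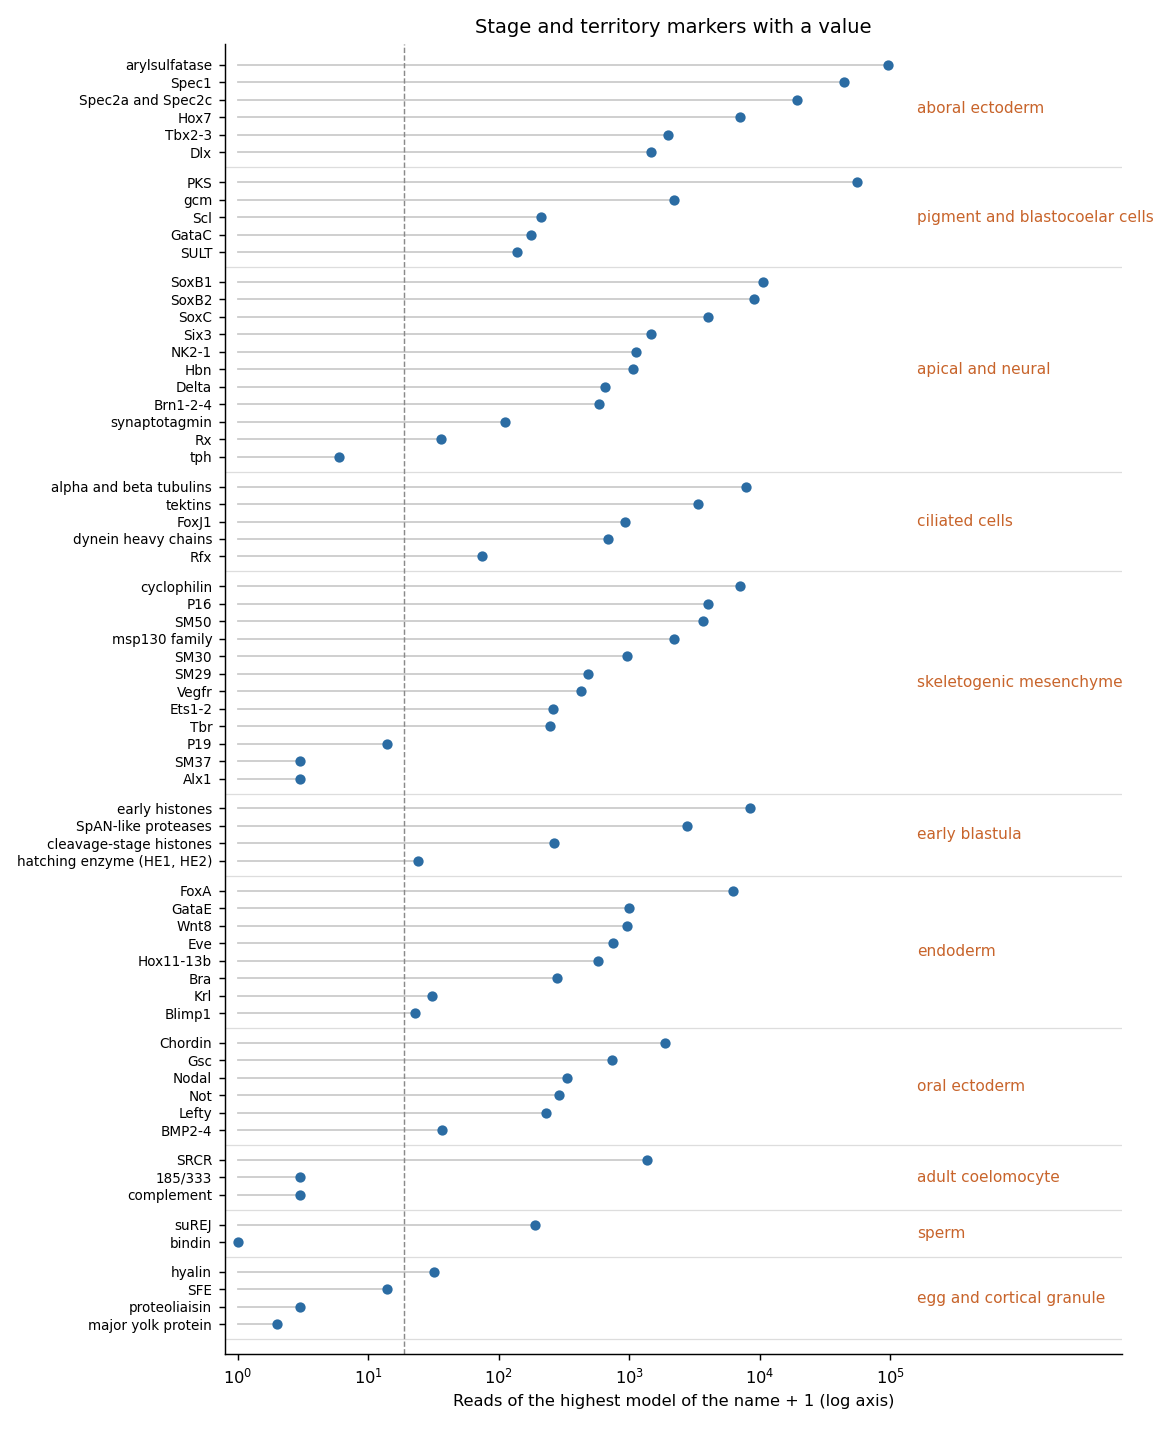
Each point gives the reads plus 1 (log axis) of the highest model of a marker in the glycerol control library, grouped by stage or territory; the dashed line is the median of all models, and markers without a value or not reported here are not drawn. Aboral ectoderm markers lie between 1459 reads for Dlx and 95363 for Sp-Ars, and bindin is at 0 reads.

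Classes together accounted for a minority of the pool. The 41 classes held 38.3% of the reads (38.3 to 38.4) in 2082 models, which were 16.1% of the 12936 models and 56 of the highest 100. Most of the remainder was in named models outside the classes and in the 22.5% without a name. The highest named models left to mention were Sp-Atp11 with 61613 reads and rank 4, Sp-IMP with 23848 and Sp-GluR-3 with 11834.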

How the data were processed

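RNA sequencing of 1 pooled sample of glycerol-injected embryos was described. The deposited value is a signal per transcript model, whose normalization neither the labels nor the file headers state. CASAVA 1.8 and Bowtie are named in the submitters' processing notes, with no version for Bowtie; the counting tool, annotation and build were not given in the sources used here. The signal was divided by its step to recover whole reads (3 models, printed to fewer digits, missed the tolerance of 0.1), and no column of values lacked a sample (0 columns). Models repeated over rows were kept once. Classes and markers are patterns on the deposited names, and a model joined a class where any of its names matched. Identifiers matched none of the reference table, so no position or sequence is given.

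The members, classes and markers were chosen with earlier results of these data known, and 6 of the 41 classes were added after values had been seen. The text names the 30 highest models with a descriptive name, the 10 highest without one, up to 4 per class, the 15 highest transcription factors and every measured marker; further names were chosen after their values were seen, and some items under the rule are not reported here. Shares have Clopper-Pearson 95% intervals. Alternatives left out the highest model, summed models of 1 identifier stem, used models on 1 row only, asked for every name in the class, raised the detection minimum to 3 or 10 reads, and added models of other identifiers. The step and interval calculations were tested on simulated data. Python 3.11.15, pandas 2.3.3, numpy 2.4.6 and scipy 1.17.1 were used.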

Additional observations from a re-analysis of the deposited data

How the results depend on the processing

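The 10 classes with the largest shares were the same 10 under all 4 alternatives run on classes, though not always in the same order. Without the highest model, which took 6.76% of the reads, the top 10, 100 and 1000 models held 14.1%, 39.8% and 79%, and every class share rose by 1.07 times by construction. The shares became 6.03% for actins, 3.88% for RNA-binding proteins, 3.46% for arylsulfatases, 2.8% for ribosomal proteins, 2.02% for translation factors, 1.91% for solute carriers, 1.73% for small GTPases and 1.66% for matrix genes. Models on several rows held 26.5% of the reads, so leaving them out shrank the total. A class share could then rise by at most 1.36 times from the smaller total alone. Over models on 1 row only the shares were 7.27% for actins, 4.53% for RNA-binding proteins, 4.29% for arylsulfatases and 2.81% for ribosomal proteins. They were 2.35% for translation factors, 2.08% for solute carriers and 2.06% for matrix genes, and named models held 76.1%. With every name required in the class they were 3.55% for RNA-binding proteins, 3.2% for arylsulfatases, 2.58% for ribosomal proteins and 1.76% for solute carriers. Models of 1 identifier stem summed gave the top 1000 a share of 80.5%. With at least 10 reads as the minimum, 7594 models counted as detected, against 12170 with at least 1 read. Models of other identifiers, an alternative chosen after seeing the data, moved none of these 8 class shares beyond its counting interval.

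No paired analysis was possible because 1 library was described. Shares per coding length were not run, since no lengths were at hand. At 4410413 reads, a share under the floor of 6.8e-05% cannot be told from 0. Blank models and the low values of genes that every cell uses limit any reading of absence, and the causes of these values were not tested.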

Other observations

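Several groups outside the classes, chosen after their values were seen, had most of their reads in 1 or a pair of models of the glycerol control library. ABC transporters held 0.351% of the reads (0.346 to 0.357) over 62 models, and Abcc9l, of the family that includes drug efflux pumps, had 9339 reads. Under 10 reads were found for 32 of the 62, while 58.7% of all models had at least 10. Sulfotransferases and heparan sulfate enzymes, a group that includes the SULT kind, held 0.342% over 52 models with a median of 42.5 reads, and Chst14 was highest with 6805. Among lipoxygenases Alox5_8 had 3663 reads and Alox5_9 had 3119, and the other 5 measured models had at most 169. Of the G protein alpha subunits, Gi had 12496 reads and Gs 3018, against 21 for G12 and 7 for Gq. Kinesin motors held 0.0692% over 38 models with a median of 6 reads, led by the cytokinesis motor Kif23 with 1316 and KRP170_partial with 884.

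Cell survival, metal-binding and germline names gave further values. The Bcl-2 family relative MCL had 5469 reads, while another model of the family, named Mcl-1, had 4. The cell death effectors Bak and Bax had 624 and 418, and the 11 measured caspase models had at most 222. Transferrin had 2363 reads and metallothionein Mt-1 had 2338, against 21 for ferritin H-chain. The Piwi-like gene seawi had 3221 reads in its higher model and 16 in its other, and a model carrying 3 nanos2 names had 362. The 5 models with germline-associated names had a median of 16 reads. Of these 5, 2 had under 10 reads, while 58.7% of all models had at least 10. Glutathione S-transferases had 50 reads at most in 6 models. Glutamine synthetase (Sp-Glul) had 10616 reads and B-cell translocation gene 1, an antiproliferative factor, 10044, both among the highest 50 models.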
